A study of Mus musculus with 8 samples.

Results

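The genes examined here were 10 CC chemokines measured in the palm skin of mice that received PACAP (pituitary adenylate cyclase-activating polypeptide) or its vehicle. They were chosen by name from the array's own gene column: Ccl2, Ccl7 and Ccl12, Ccl3, Ccl4 and Ccl5, Ccl17 and Ccl22, Ccl20, and Ccl27a. All 10 had a probe, 13 probes in all of the 39429 probes (29608 gene names) on the array. Ccl27a was read by 4 probes and every other gene by 1. The mice were C57BL/6 wild-type (WT) mice and Adcyap1r1 -/- mice, which lack the PACAP receptor PAC1R (PAC1R KO), 6 per genotype and 9 to 10 weeks old. Under anaesthesia each received, in the centre of the footpad, 5 µL of saline with 0.1% BSA (the vehicle), alone or with 1e-07 mol/L PACAP. Skin was taken after 30 or 60 min, which gave 8 RNA samples in 4 pairs of PACAP and vehicle: WT 30 min, WT 60 min, KO 30 min and KO 60 min. Each pair was hybridised to 2 two-colour arrays with the dyes swapped, so the 2 arrays repeat the same RNA and count as 1 replicate. Which mice went into an RNA sample is not given in the sources used here.

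CC chemokines are small secreted proteins that draw leukocytes along a gradient by binding G protein-coupled receptors, and many are transcribed within minutes to hours of injury or inflammatory stimulation. Ccl2, Ccl7 and Ccl12 attract monocytes through Ccr2, Ccl3, Ccl4 and Ccl5 attract monocytes and lymphocytes, and Ccl17 and Ccl22, products of dendritic cells, attract T cells through Ccr4. In skin, Ccl20 is an epithelial ligand of Ccr6, and Ccl27a is a product of keratinocytes that binds Ccr10.

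The values below come from 60-base probes, and the start of a probe shows which transcript was read. The 30 bases at the 5′ end of the probes of the 5 members past the thresholds in at least 1 comparison, and of Ccl12, the close relative of Ccl2, are given in lower case, with positions of the whole probe in mm9 as the files state them.
Ccl2 (NM_011333, chr11:81850650-81850709, + strand): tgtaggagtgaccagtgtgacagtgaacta
Ccl7 (NM_013654, chr11:81860656-81860715, + strand): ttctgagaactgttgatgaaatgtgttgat
Ccl12 (NM_011331, chr11:81916764-81916823, + strand): cctgaagttccccacgggcagtgtgatatt
Ccl3 (NM_011337, chr11:83461358-83461417, - strand): catgaactgacaaatgtacaatagatgctt
Ccl4 (NM_013652, chr11:83478052-83478111, + strand): tattatttatgttttagttataggacgcgt
Ccl17 (NM_011332, chr8:97335770-97335829, + strand): tttggagacgccagggctgctgtccatggt
The probes of Ccl2, Ccl7, Ccl12, Ccl3, Ccl4 and Ccl5 all lie on chromosome 11, those of Ccl17 and Ccl22 lie near each other on chromosome 8, that of Ccl20 lies on chromosome 1, and the 4 of Ccl27a lie on chromosome 4. The longest run of bases shared by the brightest probes of any 2 members was 8 bases, over 45 pairs, so the values of the close relatives come from different sequence. One probe of Ccl27a shared a run of 20 bases with a probe of another gene name, Gm20878, and 2 Ccl27a probes overlapped each other.

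In red, 78.6% to 94.5% of an array's spots passed the software's test of being well above background, and in green 54.0% to 65.3%. The 4 arrays of WT mice shared 1 slide and the 4 of PAC1R KO mice a second slide, and effects of slide and of genotype cannot be told apart. The probe of the deleted gene, Adcyap1r1, read 8.26 to 8.76 (log2 signal) in WT samples and 7.91 to 8.56 in KO samples, ranges that overlap over both times, while both KO samples lay below both WT samples at each time (7.91 and 7.98 against 8.26 and 8.28 at 30 min, 8.42 and 8.56 against 8.67 and 8.76 at 60 min). Whether the probe lies in the deleted part is not given. It therefore does not check the labels. Ccl2, Ccl7, Ccl12, Ccl17 and Ccl27a were well above background in all 16 readings (2 channels of 8 arrays), Ccl3 in 15, Ccl4 in 14, Ccl5 in 12, Ccl22 in 6 and Ccl20 in 0. In whole skin, a lower level from fewer cells of a type and one from less RNA per cell cannot be told apart.

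PACAP treatment was first compared with vehicle within each pair. A gene was called when the mean of both arrays reached 2.0-fold or 0.5-fold, both arrays moved the same way, and the scanner software's own p of the log ratio was under 0.01 on each. At 30 min in WT mice, 3 of the 10 members (Ccl2, Ccl7 and Ccl3) were called higher after PACAP, against 0.267% of the 29608 genes, and 0 were called lower (0.108% of genes). At 60 min in WT mice, 1 member (Ccl17) was called higher (0.659% of genes) and 0 lower (0.115%). In PAC1R KO mice, 1 member (Ccl4) was called higher at 30 min (0.692% of genes) and 0 lower (0.098%). At 60 min in PAC1R KO mice, 1 member (Ccl4) was called higher (0.179% of genes) and 1 (Ccl17) lower (0.162%). The median log2 ratio of the 10 members was 0.53, 0.0030, 0.54 and 0.37 in WT 30 min, WT 60 min, KO 30 min and KO 60 min, beside a median of 0 over all genes in each. No pair has a second RNA sample, so these calls describe the 4 pairs and carry no error between mice.

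**Figure D1:**
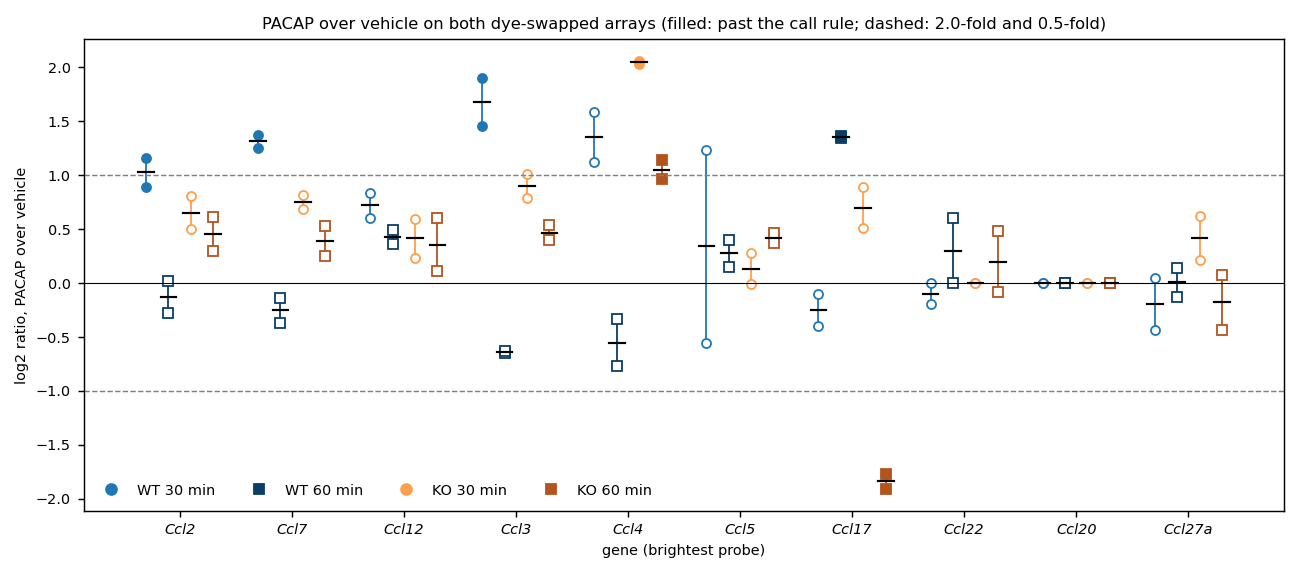
Log2 ratio of PACAP over vehicle (y axis) for the brightest probe of each of the 10 CC chemokine genes (x axis) in the 4 pairs. The 2 points joined by a line are the dye-swapped arrays, the bar is their mean, filled points are past the call rule, and dashed lines mark 2.0-fold and 0.5-fold. Ccl2, Ccl7 and Ccl3 are filled at WT 30 min only, Ccl4 at KO 30 min and KO 60 min, and Ccl17 above 0 at WT 60 min and below 0 at KO 60 min.

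The monocyte attractants Ccl2 and Ccl7 were higher after PACAP at 30 min in WT mice and near or below vehicle at 60 min. At WT 30 min the PACAP over vehicle fold of Ccl2 was 2.23 on one array and 1.86 on the other, a mean of 2.04 (log2 1.03 ± 0.19, SD of 2 arrays). At WT 60 min the folds of Ccl2 were 1.02 and 0.827. Only the first pair was past the thresholds, and there the mean passed while the second array alone did not. In PAC1R KO mice the folds of Ccl2 were 1.75 and 1.41 at 30 min and 1.53 and 1.23 at 60 min, all above 1 and none past the thresholds. The probe of Ccl2 was printed in 10 spots per array, and the folds are means over those spots on the log scale.

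Ccl7, which shares the receptor of Ccl2, had folds of 2.39 and 2.59 at WT 30 min, a mean of 2.48 (log2 1.31 ± 0.083). At WT 60 min its folds were 0.775 and 0.910. The 2 arrays of each pair lay close together, and the 30 and 60 min values did not overlap. In PAC1R KO mice the folds of Ccl7 were 1.60 and 1.76 at 30 min and 1.19 and 1.44 at 60 min, both under 2.0. The call of Ccl7 at WT 30 min was kept under all 11 other settings of the call rule, and that of Ccl2 under 9 of 11, being lost when the threshold had to be met on each array and when the second array stood alone.

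Ccl12, another ligand of Ccr2, had a mean fold of 1.65 at WT 30 min, 1.34 at WT 60 min, 1.33 at KO 30 min and 1.28 at KO 60 min. All 8 arrays gave a fold above 1 for Ccl12, from 1.08 to 1.79, and no mean reached 2.0. Ccl2, Ccl7 and Ccl12 thus each had their highest PACAP over vehicle ratio in the same pair, WT 30 min.

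Ccl3 and Ccl4, chemokines of macrophages, mast cells and other leukocytes, differed in the pair in which they were called. Ccl3 had folds of 3.73 and 2.75 at WT 30 min, a mean of 3.20 (log2 1.68 ± 0.31). At WT 60 min its folds were 0.640 and 0.648, and in PAC1R KO mice they were 2.01 and 1.73 at 30 min and 1.45 and 1.32 at 60 min. Ccl3 was thus above vehicle in 3 pairs and below it at WT 60 min, on both arrays of each pair.

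Ccl4 had folds of 4.09 and 4.17 at KO 30 min, a mean of 4.13 (log2 2.05 ± 0.020). At KO 60 min its folds were 1.96 and 2.20, a mean of 2.07 (log2 1.05 ± 0.12). At WT 30 min the mean fold of Ccl4 was 2.56, with 2.18 and 3.01 on the arrays, but the software's p on the first array was 0.0436 and the gene was not called there. At WT 60 min the folds of Ccl4 were 0.587 and 0.792. Ccl4 therefore shared with Ccl3 and Ccl7 ratios above 1 in 3 pairs and below 1 at WT 60 min.

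The ratios of Ccl3 and Ccl4 differed between methods of background correction and normalisation, changed together. The vehicle samples were well above background on 1 of 2 arrays at WT 30 min for both genes and at KO 30 min for Ccl4, and on both arrays at KO 60 min for Ccl4. The part of dimness in the differences was not tested. With normexp background correction and loess in place of the software's ratios, the mean log2 ratio was 0.58 in place of 1.68 for Ccl3 at WT 30 min, 0.30 in place of 1.36 for Ccl4 at WT 30 min, 0.74 in place of 2.05 for Ccl4 at KO 30 min and 0.63 in place of 1.05 for Ccl4 at KO 60 min, and none of these was called. The direction was kept in each, and these values lie below the 1.27 of Ccl7 at WT 30 min by the same method. The same change gave folds of 2.00 for Ccl2 and 2.41 for Ccl7 at WT 30 min.

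Ccl5, a product of T cells and other leukocytes, was not called in any pair. Its arrays disagreed at WT 30 min, with folds of 2.35 and 0.683, and its mean fold was 1.21, 1.10 and 1.33 in WT 60 min, KO 30 min and KO 60 min.

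Ccl17, the dendritic cell chemokine, had ratios of opposite sign in the genotypes at 60 min, the widest such difference among the members. At WT 60 min its folds were 2.54 and 2.57, a mean of 2.55 (log2 1.35 ± 0.014). At KO 60 min they were 0.266 and 0.294, a mean of 0.280 (log2 -1.84 ± 0.10). The 2 genotypes thus stood on opposite sides of the thresholds at 60 min, and both calls were kept under all 11 other settings. At 30 min the folds of Ccl17 were 0.758 and 0.932 in WT mice and 1.42 and 1.85 in PAC1R KO mice, with neither pair past the thresholds.

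The levels of Ccl17 show which sample set each ratio. On the log2 signal scale, vehicle and PACAP read 7.77 and 7.63 at WT 30 min, 8.02 and 9.17 at WT 60 min, 7.21 and 7.65 at KO 30 min, and 9.24 and 7.75 at KO 60 min. Only 2 of the 8 samples were high, the PACAP sample of WT mice and the vehicle sample of PAC1R KO mice, both at 60 min. The other 6 lay between 7.21 and 8.02. Ccl22, which shares the receptor of Ccl17, was well above background in 6 of 16 readings, all of them red, and never on both arrays of a sample, so no ratio is given.

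Markers of other tissue also differed between the samples at 60 min. Of 12 hair shaft genes, 9 were called higher and 0 lower at WT 60 min (median log2 ratio 2.11), and 0 higher and 2 lower at KO 60 min (median -0.51). The summed level of the hair shaft genes was 12.79 and 14.40 in the vehicle and PACAP samples at WT 60 min and 14.90 and 14.40 at KO 60 min, against 12.45 to 13.35 in the 30 min samples. The summed level of 10 dendritic and Langerhans cell genes, such as Cd207 and Cd74, was 14.80 and 15.16 at WT 60 min and 15.38 and 15.13 at KO 60 min, against 14.59 to 14.66 at 30 min, and 0 of these 10 were called in any pair, while 3 of 9 tested were called higher at 60 min in the test of level given further on (0 under either stricter fit named there). Both sums were high in the PACAP sample of PAC1R KO mice at 60 min, in which Ccl17 was not. Of 12 liver genes, 7 were called lower at WT 60 min (median -1.66) and 0 in the other pairs, with summed levels of 12.79 in the vehicle sample of WT 60 min and 12.32 to 12.48 in the other 7 samples. The part of these tissues in the ratios of Ccl17 and of the other members at WT 60 min was not tested.

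Ccl27a was not called by any of its 4 probes. Their mean log2 ratios over the 4 pairs ran from -0.30 to 0.45, and the brightest probe had mean folds of 0.873, 1.00, 1.34 and 0.883 in WT 30 min, WT 60 min, KO 30 min and KO 60 min. All arrays of all 4 probes stayed between -0.43 and 0.62. Ccl20 was not well above background in any reading, so neither a level nor a ratio is given.

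Across the 4 pairs taken as replicates, no member passed a test of the PACAP ratio. In a limma fit of the mean over the 4 pairs (30351 probes, 23068 genes, with Ccl20 and Ccl22 too dim to enter), the 8 members had estimates from -0.0100 to 0.98 on the log2 scale, with 7 above 0 and a median of 0.49, and the lowest adjusted p was 1. By unadjusted p under 0.05, 4 members passed (Ccl12, Ccl5, Ccl2 and Ccl4), as did 535 of all genes. With normexp ratios 2 members did, and the estimate for Ccl4 was 0.36 in place of 0.98. Ccl12 had the lowest p of the members, with an estimate of 0.48 ± 0.097 (SE) and a ratio above 0 in every pair. Its limma p was 0.00226 and its adjusted p was 1. The share of genes called was 0% in each direction.

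The difference in PACAP ratio between the genotypes did not pass for any member either (0% of genes called in each direction, 717 genes at unadjusted p under 0.05). KO minus WT was 1.15 ± 0.65 (SE) for Ccl4, with a 95% interval from -0.44 to 2.73, and -1.12 ± 0.88 for Ccl17, from -3.28 to 1.04, both with adjusted p = 0.839. Without the WT 30 min pair, which leaves 1 WT pair and assumes that it varies like the KO pairs, Ccl4 (2.10, adjusted p = 0.000248) and Ccl17 (-1.92, adjusted p = 0.00159) passed, among 0.247% of genes called higher and 0.355% called lower in that fit. The difference between 60 and 30 min was -1.45 ± 0.56 for Ccl4, -1.37 ± 0.45 for Ccl3, -0.96 ± 0.32 for Ccl7 and -0.67 ± 0.29 for Ccl2, with adjusted p = 1 for each. Of the 8 members, 7 had a lower ratio at 60 min, 3 of them (Ccl3, Ccl7 and Ccl4) at an unadjusted p under 0.05, as 338 of all genes did, and 0% of genes were called in each direction. With normexp ratios the difference was -0.32 for Ccl4 and -0.46 for Ccl3, while it was -0.94 for Ccl7, the only member then at an unadjusted p under 0.05 (152 of all genes).

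The levels in the 8 samples were then compared, since a ratio hides a change that both injections share. Ccl2 and Ccl7 were higher at 60 min than at 30 min in vehicle and PACAP samples of both genotypes. The log2 level of Ccl2 in vehicle and PACAP samples was 10.22 and 11.22 at WT 30 min, 10.96 and 11.60 at KO 30 min, 12.58 and 12.46 at WT 60 min, and 12.04 and 12.48 at KO 60 min. The lowest 60 min sample lay above the highest 30 min sample. From 30 to 60 min the vehicle level of Ccl2 differed 5.13-fold in WT mice and 2.12-fold in PAC1R KO mice, and the PACAP level 2.36-fold and 1.84-fold.

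Ccl7 was also higher at 60 min. Its log2 level in vehicle and PACAP samples was 9.71 and 10.98 at WT 30 min, 10.57 and 11.31 at KO 30 min, 12.40 and 12.15 at WT 60 min, and 12.22 and 12.58 at KO 60 min. The 30 and 60 min samples again did not overlap. The vehicle level of Ccl7 differed 6.43-fold between the times in WT mice and 3.13-fold in PAC1R KO mice, and the PACAP level 2.26-fold and 2.42-fold.

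Ccl3 read 6.51 and 7.10 (vehicle and PACAP) at WT 30 min, 6.65 and 7.03 at KO 30 min, 7.69 and 7.35 at WT 60 min, and 7.29 and 7.67 at KO 60 min. Its 60 min samples also lay above all 30 min samples. In WT mice the vehicle sample was the lowest at 30 min and the highest at 60 min for Ccl2 and Ccl3, and for Ccl7 it was the lowest at 30 min. For these genes the WT vehicle level differed more between the times than the WT PACAP level did. This restates the WT ratios, with means above 1 at 30 min and below 1 at 60 min, and is no separate result. Of the 8 members that passed the filter for levels, 3 had 60 min samples all above the 30 min samples (11.1% of the 20577 genes that passed did), and 0 had them all below (10.6% of genes).

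**Figure D2:**
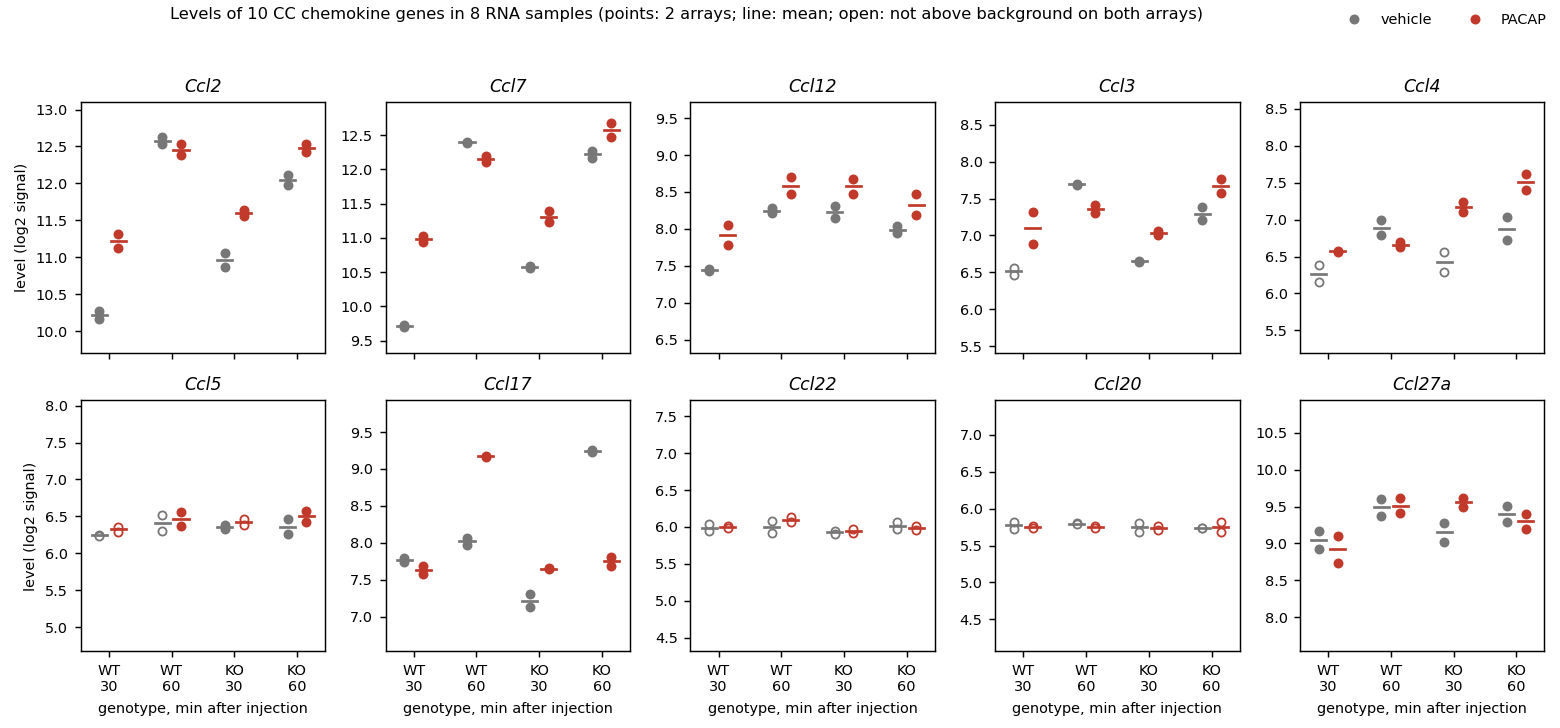
Log2 signal (y axis, a span of its own for each gene) in the vehicle and PACAP samples of each genotype and time (x axis) for the 10 CC chemokine genes. Points are the 2 arrays, lines their mean, and open points mark samples not well above background on both arrays. Ccl2, Ccl7 and Ccl3 are higher in all 4 samples at 60 min than in all 4 at 30 min, Ccl17 is high in 2 of the 8 samples, and Ccl20 and Ccl22 are near background throughout.

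For Ccl4 the log2 levels were 6.27 and 6.57 at WT 30 min, 6.43 and 7.17 at KO 30 min, 6.89 and 6.66 at WT 60 min, and 6.88 and 7.51 at KO 60 min (vehicle and PACAP). The times overlapped, and the 2 highest samples were the PACAP samples of PAC1R KO mice. Ccl12 read 7.44 and 7.91 at WT 30 min and 8.25 and 8.59 at WT 60 min, but 8.23 and 8.58 at KO 30 min and 7.99 and 8.33 at KO 60 min, so that it was higher at 60 min in WT mice and lower in PAC1R KO mice under both injections. Ccl27a ranged from 8.92 to 9.55 and Ccl5 from 6.24 to 6.50, with no separation of the times.

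In the limma fit of levels on genotype, time and treatment with the RNA pair as a random block, Ccl2 and Ccl7 passed the test of 60 minus 30 min, among 7.03% of genes called higher and 4.06% called lower. The estimate was 1.39 ± 0.26 (SE) for Ccl2, with a 95% interval from 0.77 to 2.02 and adjusted p = 0.0312, and 1.69 ± 0.28 for Ccl7, from 1.01 to 2.38 and adjusted p = 0.0260. Ccl3 (0.68 ± 0.17, adjusted p = 0.0575) did not pass, though it did without the random block (adjusted p = 0.0286), and the median over the 8 members was 0.53 beside 0.0033 over all genes. In the same contrast the median was 1.21 over 11 hair shaft genes (0 called) and 0.35 over 9 dendritic and Langerhans cell genes, and their part in the levels of the members was not tested. The calls of Ccl2 and Ccl7 did not hold under stricter treatment of the pairs. This fit gave too many false calls on simulated data, and with the correlation within pairs estimated by moments the adjusted p was 0.0567 for Ccl2 and 0.0527 for Ccl7, so that 0 members passed, among 2.74% of genes called higher and 0.671% called lower. With 1 value per pair the adjusted p was 0.209 for both, with 0% of genes called by limma and 4009 at an unadjusted p under 0.05.

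**Figure D3:**
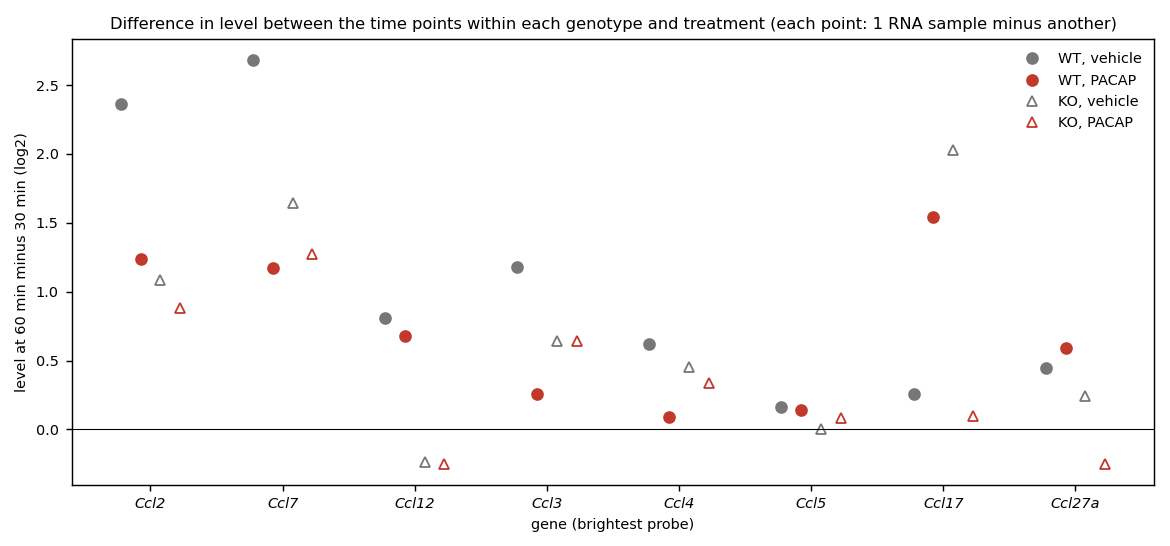
Log2 level at 60 min minus that at 30 min (y axis) for the 8 CC chemokine genes that passed the filter for levels (x axis). Circles are WT and triangles PAC1R KO mice, vehicle samples are grey and PACAP samples red. Ccl3, Ccl4 and Ccl5 were not well above background in every reading. Each point is the difference of 2 RNA samples. All 4 points of Ccl2, Ccl7, Ccl3, Ccl4 and Ccl17 lie above 0, the vehicle point of WT mice is the highest for Ccl2 and Ccl7, and Ccl12 lies above 0 in WT and below 0 in PAC1R KO mice.

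Between the genotypes, 0 of 8 members passed the test of level, KO minus WT (1.86% of genes were called higher and 1.6% lower in PAC1R KO mice, and 0 genes in each direction under both stricter fits). The estimates ran from -0.18 to 0.40, and the lowest adjusted p among the members was 0.236. For Ccl4, the highest, the estimate was 0.40 ± 0.19 (SE), with a 95% interval from -0.055 to 0.85. For Ccl7 it was 0.36 ± 0.28, from -0.33 to 1.04.

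Over the 8 samples Ccl7 had the widest range of levels among members above background on every array, 2.87 on the log2 scale. The member most like it was Ccl2 (Pearson r = 0.985), followed by Ccl3 (0.955). Among the 16139 other genes above background on every array, the 5 most like Ccl7 were Tnfaip3 (r = 0.971), an inhibitor of NF-kappa-B signalling, Cxcl1 (0.969), a neutrophil attractant, Atf3 (0.968), a stress-induced transcription factor, Nfkbid (0.967), a nuclear NF-kappa-B inhibitor, and 1 probe without a gene name (0.960). In all, 61 genes (0.378%) had an r above 0.9. The 8 points share 4 pairs of arrays and are described without a test. Cxcl1 read 10.25 and 11.59 in the vehicle and PACAP samples at WT 30 min and 12.41 and 12.25 at WT 60 min, the same order as Ccl7.

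**Figure D4:**
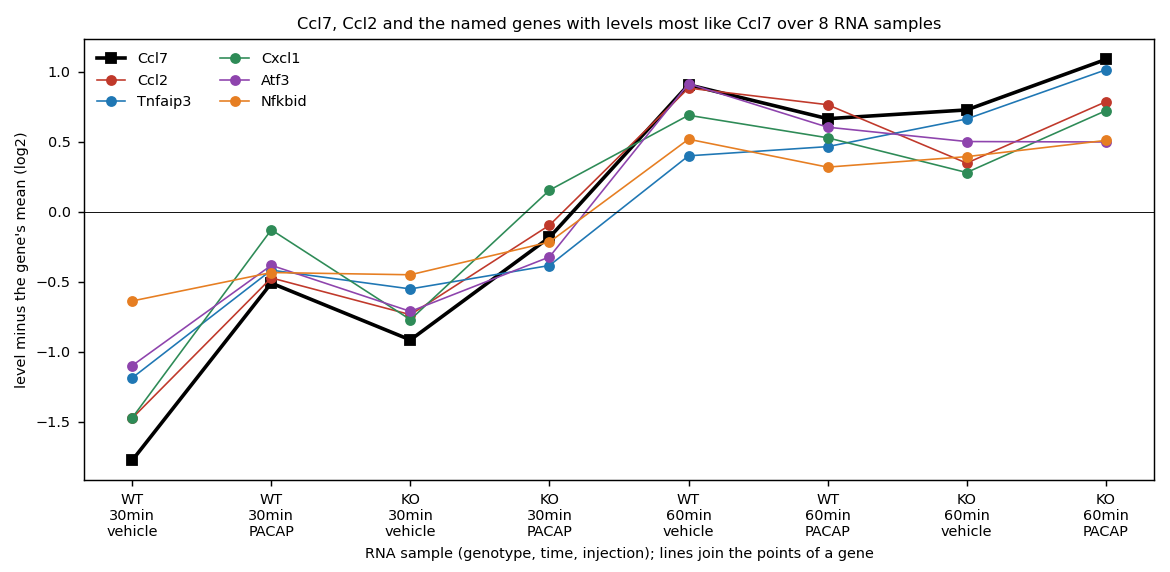
Log2 level minus the gene's own mean (y axis) in the 8 RNA samples (x axis, 30 min samples left and 60 min samples right) for Ccl7, Ccl2 and the 4 named genes most like Ccl7 in level. Lines join the points of a gene, and all 6 genes lie lowest in the vehicle sample of WT mice at 30 min and above their mean in all 60 min samples.

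Other CC chemokine ligands were read by the same rule. Of 11 on the array, 1 was called higher at KO 30 min (Ccl6, 2.00-fold, a macrophage and neutrophil product), against 0.692% of genes. In any other pair or direction 0 were called. The median log2 ratios were 0.15, 0.010, 0.29 and -0.14 in WT 30 min, WT 60 min, KO 30 min and KO 60 min. Ccl8 was called in no pair, with mean log2 ratios of 0.24, 0.62, 0.84 and 0.063 in that order, but was 1 of 9 ligands tested that passed the test of level at 60 minus 30 min (1.03 ± 0.21, adjusted p = 0.0377, 0.0653 with the correlation by moments, and 0.209 with 1 value per pair). That test called 7.03% of all genes tested higher, and 2.74% with the correlation by moments. The log2 level of Ccl8 was 10.35 to 11.24 at 30 min and 10.82 to 12.28 at 60 min.

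Of 14 CC receptors on the array, 0 were called in any pair, and the median log2 ratios were 0.040, 0.078, 0.22 and -0.040. The receptors named below were picked after their values were seen, by the members they bind or by the test of level. Ccr2, the receptor of Ccl2, Ccl7 and Ccl12, had mean log2 ratios of 0.71, 0.33, 0.22 and -0.13 in the same order. Ccr4, Ccr10 and Ccr1 were well above background in 7, 8 and 8 of 16 readings. Of 11 receptors tested for level, 1 was lower at 60 min, the scavenging receptor Ackr2, which takes up and degrades inflammatory CC chemokines (-0.55 ± 0.067, adjusted p = 0.0155, and 0.0301 with the correlation by moments), and 2 were higher, Ccr7 (0.33, adjusted p = 0.0438, then 0.0759) and Ccrl2 (0.26, adjusted p = 0.0492, then 0.0890). With 1 value per pair the adjusted p was 0.209 for Ackr2, 0.237 for Ccr7 and 0.260 for Ccrl2. Ackr2 read 8.60 to 8.88 in the 30 min samples and 7.98 to 8.33 in the 60 min samples, ranges that do not overlap. Of the 20577 genes that passed the filter for levels, 10.6% had all 60 min samples below all 30 min samples. The test of level at 60 minus 30 min called 4.06% of those genes lower and 7.03% higher (0.671% and 2.74% by moments). These shares also stand beside the list counts below. Between the genotypes, Ccrl2 was higher in PAC1R KO mice (0.45, adjusted p = 0.0359, 0.0732 by moments, and 0.396 with 1 value per pair).

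Of 11 cytokines known to induce CC chemokines, Il1b, a macrophage and neutrophil cytokine, was called higher at WT 30 min (2.10-fold) and at KO 30 min (4.76-fold), and the other 10 in no pair. The mean log2 ratio of Il1b was 1.07 at WT 30 min, -0.80 at WT 60 min, 2.25 at KO 30 min and 0.55 at KO 60 min, beside 1.36, -0.55, 2.05 and 1.05 for Ccl4 by the software's ratios. Tnf had ratios of 1.07, -0.12, 0.57 and 0.11, and was 1 of 7 cytokines tested that passed the test of level at 60 minus 30 min (0.91 ± 0.073, adjusted p = 0.0126, 0.0252 by moments, and 0.209 with 1 value per pair). Il33, a keratinocyte alarmin, was higher in PAC1R KO mice in the test of level (0.44 ± 0.075, adjusted p = 0.0450, 0.0867 by moments, and 0.396 with 1 value per pair). Of 13 NF-kappa-B feedback genes, 0 were called in any pair, and 1 (Tnfaip3) passed the test of level at 60 minus 30 min (1.27 ± 0.14, adjusted p = 0.0139, 0.0292 by moments, and 0.209 with 1 value per pair).

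Cell type markers were read beside these results. Of 10 monocyte and macrophage genes, 0 were called in any pair, and their summed log2 level was 13.84 to 14.12 at 30 min and 13.93 to 14.24 at 60 min, while 2 of the 10 were called higher at 60 min in the test of level and 0 under the stricter fits. Of 11 T cell genes, 0 were called in any pair. Of 10 neutrophil genes, 1 (Retnlg, 2.91-fold) was called higher at KO 30 min, and the summed level was 12.64 to 12.92 at 30 min and 12.46 to 12.60 at 60 min. Of 8 mast cell, 8 fibroblast, 8 endothelial, 6 lymphatic endothelial and 10 housekeeping genes, 0 were called in any pair. In the test of level at 60 minus 30 min, 1 endothelial and 1 liver gene were called higher and 1 keratinocyte gene lower, of which the liver gene was kept by moments. In that of KO minus WT, 1 monocyte and macrophage gene was called higher and 1 keratinocyte gene lower, neither of them by moments.

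Structural tissue differed within the 30 min pairs that held the calls of Ccl2, Ccl7, Ccl3 and Ccl4. Of 13 skeletal muscle genes, 4 were called higher at WT 30 min (Myh1, Myh2, Myh4 and Ttn) and 3 lower at KO 30 min (Acta1, Myh1 and Myh4), with median log2 ratios of 0.86 and -0.81. Their summed level was 17.24 and 18.17 in the vehicle and PACAP samples at WT 30 min and 17.86 and 17.15 at KO 30 min. At KO 30 min, 2 of 12 keratinocyte genes (Krt1 and Krt10) were called lower (median -0.63), and of 12 hair shaft genes 7 were called higher and 2 lower, against 1 higher and 2 lower at WT 30 min. The muscle genes moved in opposite directions in the 2 pairs. Ratios of Ccl2, Ccl7, Ccl3 and Ccl4 were above 1 in both. None of the 8 fibroblast genes was called, but 8 of 8 had ratios above 0 at WT 30 min (median 0.35) and 7 of 8 below 0 at KO 30 min (median -0.47). The part of tissue make-up in the ratios of Ccl2, Ccl7, Ccl3 and Ccl4 was not tested.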

How the data were processed

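Each of the 4 pairs of PACAP and vehicle RNA was read on 2 dye-swapped Agilent two-colour arrays (44397 spots, 43020 without controls). Per the file headers, the deposited scanner files hold log10 ratios of red over green with the software's p-values, and intensities of both channels (Feature Extraction 12.0.3.1 in the headers and 11.0.1.1 in the submitters' notes, probe positions in mm9). The authors' series matrix, a deposited log10 ratio table, held the ratio of processed red over green on every spot, not centred (array medians -0.031 to -0.00074), and served as an alternative. The scanner ratios were 0 on 13.4% to 25.0% of an array's spots, where the series matrix gives the computed ratio, which bears on the dim Ccl20 and Ccl22. Ratios were turned to log2 PACAP over vehicle, outlier spots were left out, spots of a probe were averaged (p by median), and a gene was read by its brightest probe. Levels were log2 intensities of each channel after normexp (offset 50), loess and Aquantile. A ratio test took a probe that passed the background test in either channel of each of the 8 arrays, and a test of level took one that passed it on both arrays of any sample. Tests used limma 3.58.1 in R 4.3.3 with Benjamini-Hochberg adjustment at 0.05, and were tested on simulated data. The 2 arrays of a pair were averaged first.

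The members, the 17 lists beside them and the tests were chosen with earlier results of these data known. The genes named are all 10 members, list genes past the call rule, Adcyap1r1, and the 5 genes most like the member of widest range, beside list genes past a test of level and receptors of the members (Ccr2, Ccr4, Ccr10 and Ccr1), which were added after their values were seen, and Cd207 and Cd74 as examples of their list. Fits with 1 value per pair, with the pair correlation by moments, and within vehicle or PACAP samples were also chosen after seeing the data. Nothing in the labels says that the 4 pairs are replicates of a condition, so p-values measure the spread between pairs, which differ in genotype and time. Dye orientation is the replicate number, and same-numbered arrays deviated together (r from 0.70 to 0.85). Alternatives were other ratios, centring, filters, thresholds, blocks and leaving out arrays or pairs. The number of arrays limits the precision. No array was excluded.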

Additional observations from a re-analysis of the deposited data

Results flagged for a closer look

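Ratios of PACAP over vehicle that lay above 0 on both arrays of one pair and below 0 on both arrays of another are listed here for 4 genes, as differences of mean log2 ratios. None of these single differences was tested, since each pair is 1 RNA sample against another.

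For Ccl17 the difference between the genotypes, KO minus WT, was 0.95 at 30 min and -3.19 at 60 min. Between the times, 60 minus 30 min, it was 1.60 in WT mice and -2.54 in PAC1R KO mice. Of the members, only Ccl17 changed sign between the times on both arrays in both genotypes.

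In WT mice, 60 minus 30 min was -2.32 for Ccl3, -1.91 for Ccl4 and -1.56 for Ccl7, each above 0 at 30 min and below 0 at 60 min. With normexp ratios these were -0.92, -0.53 and -1.51, so the sizes for Ccl3 and Ccl4 and the order of the genes differed between the methods, which change background correction and normalisation together. At 60 min, KO minus WT was 1.10 for Ccl3, 1.61 for Ccl4 and 0.64 for Ccl7, each below 0 in WT mice and above 0 in PAC1R KO mice, and with normexp ratios it was 0.71, 0.86 and 0.60.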

How the results depend on the processing

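Of the 7 member calls, Ccl7 at WT 30 min and Ccl17 at both 60 min pairs were kept under all 11 alternatives. Members called at KO 30 min numbered 0 with normexp ratios (139 genes in all, against 234 by the rule), 3 at 1.5-fold (869 genes), and 1 to 2 with an array left out (675 to 868 genes). At KO 60 min they numbered 1 with normexp ratios (61 genes, against 101), 1 with the threshold on each array (83 genes), and 1 to 2 with an array left out (339 to 537 genes). At WT 60 min they numbered 2 at 1.5-fold (305 genes, against 229). At WT 30 min they numbered 2 with normexp ratios (49 genes, against 111) and 2 with the threshold on each array (86 genes). They numbered 4 there at 1.5-fold (451 genes) and 4 without the filter on the software's p (167 genes). With an array left out they numbered 3 (460 to 666 genes), with Ccl4 in place of Ccl2 when the second array stood alone. Members passing the level test of 60 minus 30 min numbered 2 (2283 genes in all). They numbered 0 in vehicle samples only, in PACAP samples only and with 1 value per pair (0 genes in each). With the pair correlation by moments they numbered 0 (701 genes), and without the random block 3 (3910 genes). With processed signals the level difference of 60 minus 30 min was 1.24 for Ccl3, 1.11 for Ccl4 and 0.50 for Ccl5, in place of 0.68, 0.38 and 0.097, none of them past the threshold. Members passing the KO minus WT test of the PACAP ratio numbered 0 with all pairs in. Leaving out a pair leaves 1 pair in a genotype, so no count is given for those fits. The cause of the differences between settings was not tested.

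In the fit of single arrays with the replicate number as a block, 0 members and 0 genes passed in the 3 tests of the PACAP ratio, as without it. With no call in either fit, this says nothing about stability.

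The following small differences changed sign outside the leave-outs. KO minus WT in level was 0.34 for Ccl17 in vehicle samples only, and for Ccl3 0.12 in PACAP samples only and 0.12 with processed signals. KO minus WT of the PACAP ratio was 0.028 for Ccl5 with normexp ratios. With 1 pair left out, values ran across 0 for the following. The level at 60 minus 30 min ran from -0.24 to 0.74 for Ccl12 and from -0.0033 to 0.52 for Ccl27a. The level KO minus WT ran from -0.26 to 0.72 for Ccl12, -0.26 to 0.56 for Ccl2, -0.15 to 0.37 for Ccl27a, -0.041 to 0.032 for Ccl3 and -0.0063 to 0.11 for Ccl5. The PACAP ratio at 60 minus 30 min ran from -2.06 to 1.13 for Ccl17 and -0.51 to 0.11 for Ccl27a. KO minus WT of the PACAP ratio ran from -2.39 to 0.15 for Ccl17, -0.47 to 0.68 for Ccl2, -0.085 to 0.51 for Ccl27a, -0.996 to 1.32 for Ccl3, -0.17 to 0.11 for Ccl5 and -0.74 to 0.82 for Ccl7. The mean over pairs ran from -0.46 to 0.60 for Ccl17 and -0.12 to 0.082 for Ccl27a. Levels with a pair left out carry no test. Ccl3, Ccl4 and Ccl5 were well above background in 15, 14 and 12 of 16 readings, and no ratio is given for Ccl20 and Ccl22.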
